A study of Homo sapiens with 20 samples.

Results

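The regions described here were bound by HIF1A in hypoxic HCT116 and hypoxic H460 cells and were not called in hypoxic RKO or A549 cells. HIF1A chromatin immunoprecipitation followed by sequencing (ChIP-seq) recovers, with an antibody against HIF1A, the DNA fragments to which the protein was crosslinked. Hypoxia peaks of the 4 lines that overlapped by at least 1 bp, directly or through a chain of overlaps, formed 1 region, and a region became a member when it held a peak of HCT116 and of H460 and none of RKO or A549. This rule gave 284 members among 19628 regions, or 1.45% of the regions, 7.11% of the 3995 regions with an HCT116 peak and 7.33% of the 3877 regions with an H460 peak. Every member held 1 HCT116 peak and 1 H460 peak.

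HCT116 derives from a colorectal carcinoma, RKO from a colon carcinoma and both A549 and H460 from lung carcinomas, so the members join 1 line of each tissue. Cells of each line were kept in normoxia or in 1% O2 for 24 h, as 2 biological replicates per group, and genomic DNA of each line gave 1 input library, making 20 samples. No group carried a genetic change or drug treatment in the labels, the culture medium differed among HCT116, H460 and the other 2 lines, and each result comes from established lines grown in culture. The replicates had been merged before peaks were called, so there was 1 list for each line and condition and no replicate error could be computed. The merged hypoxia libraries held 81.5 M tags in HCT116, 49.5 M in H460, 66.9 M in RKO and 46.6 M in A549, where 1 M is 1000000 tags. Peaks also had to exceed the input by a fold that differed between lines, namely 7 in HCT116, 14 in H460, 6 in RKO and 13 in A549. Each list was called against the input of its line, but the labels of the inputs conflict: those titled RKO and A549 carry each other's line in the description, and all 4 name HCT116 as the source. The rule, which needs no peak in RKO and A549, rests on peaks called against these inputs. The absence of a peak therefore means that no peak passed the threshold of that list, and the tags of RKO and A549 at the members were not analysed here.

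HIF1A is the oxygen-regulated subunit of the transcription factor HIF1. In normal oxygen it is hydroxylated and degraded, and in hypoxia it is stabilised, pairs with ARNT and binds the hypoxia response element (HRE), whose core is ACGTG or GCGTG, written RCGTG. Genes that it is known to activate include those of glucose uptake, glycolysis, angiogenesis and mitochondrial turnover, and the sites it occupies differ between cell types, where open chromatin and other factors bound at promoters and enhancers differ.

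The sequences of 4 strong members that lie far from annotated gene starts are shown first, because they show how the HRE core sits in the bound DNA. Each is the whole joined region on the plus strand of GRCh37 (hg19), 5′ to 3′, with capitals marking the letters of RCGTG read on either strand (CACGT or CACGC where it is on the minus strand). The region nearest to DNAJB12 was chr10:74081990-74082140, that nearest to LINC01816 was chr2:70369923-70370082, that nearest to TCFL5 was chr20:61506937-61507093 and that nearest to LINC00974 was chr17:39704300-39704458, and the centres of all 4 were intergenic.
DNAJB12: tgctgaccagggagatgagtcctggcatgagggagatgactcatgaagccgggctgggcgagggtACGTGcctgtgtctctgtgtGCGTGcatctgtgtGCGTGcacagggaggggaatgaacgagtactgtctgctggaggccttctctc
LINC01816: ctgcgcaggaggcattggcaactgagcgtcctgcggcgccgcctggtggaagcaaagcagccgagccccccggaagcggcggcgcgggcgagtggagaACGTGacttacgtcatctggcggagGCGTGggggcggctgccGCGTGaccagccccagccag
TCFL5: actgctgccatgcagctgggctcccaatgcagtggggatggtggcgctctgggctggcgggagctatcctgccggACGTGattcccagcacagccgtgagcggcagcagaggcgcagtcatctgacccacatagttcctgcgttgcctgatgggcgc
LINC00974: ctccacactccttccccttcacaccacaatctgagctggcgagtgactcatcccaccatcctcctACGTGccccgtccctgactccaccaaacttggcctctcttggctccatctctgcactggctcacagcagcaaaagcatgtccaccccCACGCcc

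The HRE core lay near the middle of these regions. Its nearest copy was 9 bp from the region centre at DNAJB12, 20 bp at LINC01816, 2 bp at TCFL5 and 13 bp at LINC00974. The DNAJB12 and LINC01816 regions held 3 cores each, and the TCFL5 region held 1. The DNAJB12 and LINC00974 regions also held 1 copy each of TGACTCA or TGAGTCA, the letters recognised by AP-1 factors of the JUN and FOS families.

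For strong members at gene starts, 30 bases around the core nearest to the region centre are shown, on the strand on which that core reads RCGTG, again with capitals for RCGTG in the direction shown or its reverse complement. These windows lay at chr5:133340679-133340708 (plus strand, VDAC1), chr16:87425815-87425844 (minus, FBXO31 and MAP1LC3B), chr17:78120979-78121008 (plus, EIF4A3), chr6:26172243-26172272 (minus, H2BC6), chr15:59063461-59063490 (plus, MINDY2) and chr2:128144996-128145025 (minus, MAP3K2-DT and MAP3K2).
VDAC1: ggcgccggactgACGTGtgcaccgtgtgtg
FBXO31 and MAP1LC3B: ccgccatgacggGCGTGgcggaacccagca
EIF4A3: gcgtACGTGcgtACGTGcgtacgcgcgacg
H2BC6: gacgttaaacgtACGTGacgccctatgcgg
MINDY2: ctctccccggtgACGTGcctgaccgaggcc
MAP3K2: ACGTGCGTGtgtGCGTGcgcgcgcgcttgt
The EIF4A3 window held 2 cores and the MAP3K2 window held 3, whereas the other 4 windows held 1.

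The signal of a peak is its normalized tag count, the number of ChIP tags in the peak scaled to 10 M tags of the library. Members were chosen by their peak calls in these lists, so the signals below describe them and carry no test. In HCT116 the members ranged from 2.21 to 30.3 tags per 10 M with a median of 4.42 and quartiles of 3.31 and 6.01. In H460 they ranged from 3.03 to 52.8 with a median of 9.91 and quartiles of 5.66 and 14.4. In unscaled tags the medians were 36 in HCT116 and 49 in H460, and the weakest member peaks held 18 and 15 tags. Most members stood above the median peak of a list, with 226 of 284 above it in HCT116 and 184 in H460, while 26 and 16 were in the top 10%. The regions called in all 4 lines, 232 in number, were stronger, with medians of 11.8 in HCT116 and 27.0 in H460, and those called in HCT116 alone and in H460 alone were weaker, with medians of 2.82 and 5.46.

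**Figure D1:**
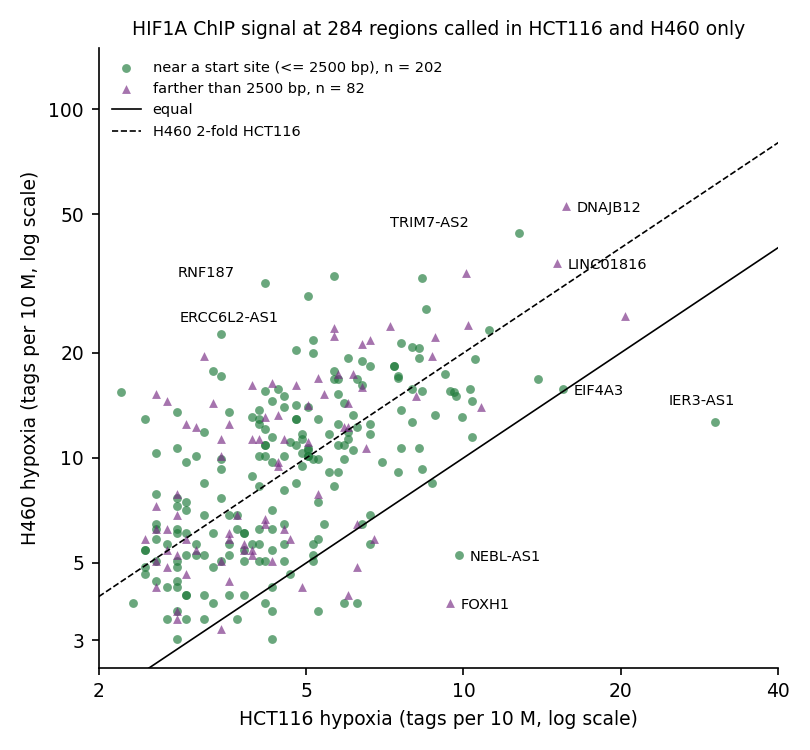
Normalized tag count of the 284 members in hypoxic HCT116 (horizontal axis) and hypoxic H460 (vertical axis), both on log scales in tags per 10 M, with circles for the 202 members near a gene start and triangles for the 82 others. The solid line marks equal values and the dashed line a value in H460 that is 2-fold that in HCT116, and 264 members lie above the solid line.

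The H460 signal exceeded the HCT116 signal at 264 of the 284 members. The median log2 ratio of H460 to HCT116 was 1.00, with quartiles of 0.55 and 1.48 and a range from −1.30 to 2.93. At least a 2-fold higher value in H460 was seen at 142 members, or 50.0%, against a background of 51.1% of the 809 regions called in both lines, so the share at the members was near that background. The median log2 ratio was 0.99 at the regions of all 4 lines, 1.13 at those of HCT116, A549 and H460, and 1.05 at those of HCT116, RKO and H460. Members near a gene start had a median log2 ratio of 0.95 and the others 1.16. Across the 284 members the 2 signals had a Spearman rho of 0.56, where the points share the 2 libraries and their depths. Differences in enrichment between the 2 merged libraries cannot be told apart from differences in binding.

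The strongest members were chosen by the mean rank of the signal in the 2 lists, 10 near a gene start and 5 farther away. Intervals given with single peaks are exact 95% intervals of the tag counts, which cover counting error only and not the spread between cultures. The first of the 15, 32842 bp from the start of DNAJB12, which encodes a co-chaperone of the endoplasmic reticulum membrane, held 15.7 tags per 10 M in HCT116 (13.1 to 18.7) and 52.8 in H460 (46.6 to 59.6). The region 9947 bp from the start of the long noncoding RNA LINC01816 held 15.1 in HCT116 and 36.2 in H460. At the region 13841 bp from TCFL5, a basic helix-loop-helix factor, the values were 10.1 and 34.0. The LINC00974 region, at 6368 bp, held 10.2 and 24.1. The remaining one, on chromosome 8 in an intron of TPD52, held 20.4 in HCT116 and 25.5 in H460, and its ratio of 1.25 had an interval of 0.985 to 1.59. It counted as distal because the nearest outermost gene start was 48825 bp away, and starts inside genes were not used. Its central 200 bp had a GC content of 77%. Over all 809 regions called in both lines the median ratio of H460 to HCT116 was 2.02, and the ratios of single regions are to be read beside that value. The TPD52 ratio lay below it.

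The strongest member near a gene start lay 61 bp from the start of TRIM7-AS2, an antisense transcript, at chr5:180618826-180619008, with 12.8 tags per 10 M in HCT116 and 44.1 in H460. Its 200 bp centre held no RCGTG, and the nearest copy was 146 bp away. At VDAC1, which encodes the voltage-dependent anion channel of the outer mitochondrial membrane, the region at chr5:133340619-133340777 covered the start site, its centre being 32 bp upstream, and held 5 RCGTG, with 8.34 in HCT116 (6.48 to 10.6) and 32.8 in H460 (27.9 to 38.2). The ratio at VDAC1 was 3.93, with an interval of 2.94 to 5.29. The region 78 bp upstream of FBXO31, an F-box subunit of ubiquitin ligases, lay in an annotated untranslated region (UTR) of MAP1LC3B, which encodes the autophagosome protein LC3B, at chr16:87425742-87425911, and held 11.2 and 23.3.

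The other 7 strong members near a start had signals from 7.60 to 15.5 in HCT116 and from 15.8 to 26.7 in H460. At EIF4A3, the helicase of the exon junction complex, the region at chr17:78120923-78121084 held 7 RCGTG, and its values of 15.5 in HCT116 and 15.8 in H460 gave a ratio of 1.02 (0.759 to 1.36). At MAP3K2, a kinase upstream of the MAPK cascades, and its divergent transcript the values were 13.9 and 16.8, with a ratio of 1.21 (0.901 to 1.62). Both ratios and their intervals lay below the median of 2.02 over the regions called in both lines.
At H2BC6, an H2B histone gene, the values were 10.5 and 19.2, at FNTB, the beta subunit of protein farnesyltransferase, 8.46 and 26.7, and at NRF1, the nuclear respiratory factor, 8.22 and 20.6. At MINDY2, a deubiquitinase, they were 7.97 and 20.8, and at PPP1R21, a regulatory subunit of protein phosphatase 1, 7.60 and 21.4. Their ratios ranged from 1.83 at H2BC6 to 3.16 at FNTB, on both sides of that median.

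**Figure D2:**
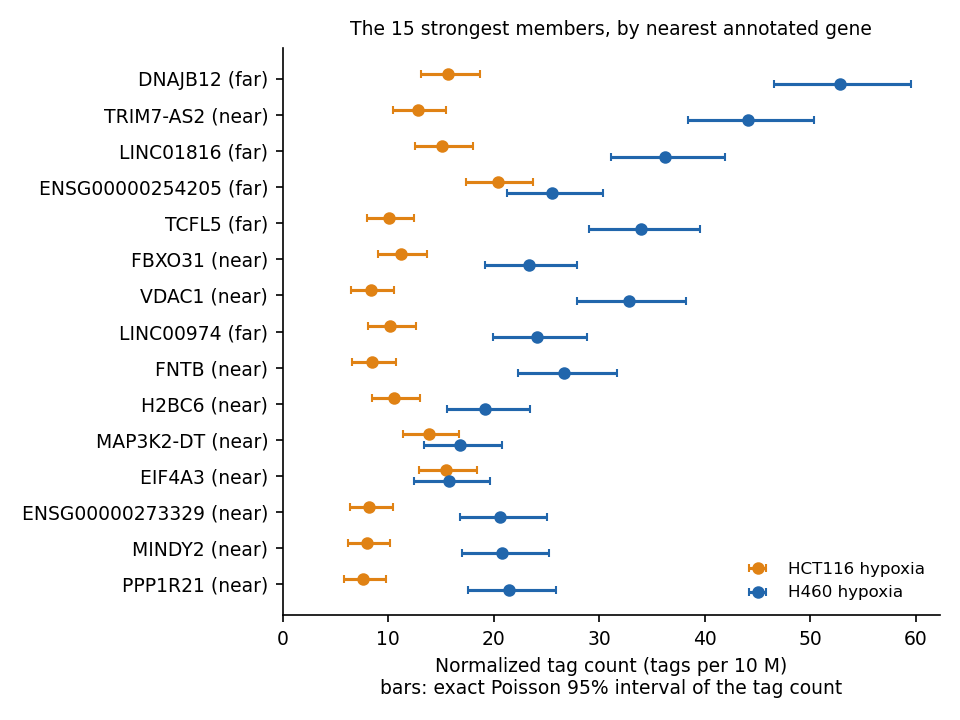
Normalized tag count (horizontal axis, tags per 10 M) in hypoxic HCT116 and hypoxic H460 at the 15 strongest members, named by the nearest annotated gene and marked as near or far from its start; bars are exact Poisson 95% intervals of the tag count. The intervals of the 2 lines overlap at ENSG00000254205 (in TPD52), MAP3K2-DT and EIF4A3, and are apart at the other 12.

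The members with the most unequal signals were as follows. The highest ratios of H460 to HCT116 were 7.60 at RNF187, which encodes an E3 ubiquitin ligase, with 4.17 and 31.7 tags per 10 M; 6.97 at ENSG00000280195, a lncRNA start in an intron of RPL10, with 2.21 and 15.4; and 6.59 at ERCC6L2-AS1, with 3.43 and 22.6. Their intervals were 5.23 to 11.4, 4.12 to 12.4 and 4.33 to 10.4. The lowest were at FOXH1, IER3 and NEBL-AS1. The region whose nearest start was that of FOXH1, which encodes a forkhead partner of SMAD proteins, lay 3211 bp downstream of that start in a coding exon of the neighbouring gene KIFC2, and held 9.44 in HCT116 and 3.84 in H460, 2.46-fold higher in HCT116 (1.47 to 4.30). At IER3 the values were 30.3 and 12.7, 2.39-fold higher in HCT116 (1.80 to 3.19), and at NEBL-AS1 they were 9.81 and 5.26, 1.87-fold higher (1.19 to 3.03). In all, 20 members were lower in H460 than in HCT116.

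The members were mostly at gene starts. The midpoint was within 2500 bp of the start site (TSS) of a protein-coding or long noncoding RNA gene at 202 of 284 members, or 71.1% (Wilson 95% interval 65.6% to 76.1%), beside a background of 27.0% of all 19628 regions. The bound position was close to the start: 129 members were within 250 bp, and 185 within 1000 bp. Among the 202 the signed distance, negative upstream, had a median of −4.5 bp and quartiles of −131 bp and 194 bp. At 43 members, or 15.1%, starts on opposite strands pointed away from each other within 1000 bp of the midpoint. This share was 17.4% in RKO and H460 only, 11.5% in HCT116 and RKO only and 6.81% in A549 and H460 only. In HCT116 alone and H460 alone it was 5.48% and 5.70%. Annotation at the midpoint was an intron at 94 members, intergenic at 86, a UTR at 61, a noncoding exon at 25 and a coding exon at 18. The 82 distal members lay a median of 15956 bp from the nearest start, with 46 of them in introns and 20 intergenic, and 14 lay more than 50000 bp away. Only the outermost annotated start of each gene was used, in every region class. With the starts of every annotated transcript of these genes, 239 of 284 members, or 84.2%, were within 2500 bp. Some of the 82 distal members thus lay at other starts inside a gene, and the values given for distal members include them.

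The share near a start differed between region classes. It was 79.2% (72.8% to 84.5%) of the 183 regions called in the colon lines HCT116 and RKO only, 77.4% of the 190 of RKO and H460 only, and 73.7% (67.7% to 79.0%) of the 232 of all 4 lines. It was 56.1% of the 164 of HCT116 and A549 only, 41.2% (35.6% to 47.1%) of the 279 called in the lung lines A549 and H460 only, 35.9% of those of HCT116 alone and 40.5% of those of H460 alone. The interval of the members overlapped those of the HCT116 and RKO, RKO and H460, and 4-line classes, and was apart from the others named. Regions are not replicates, and differences between classes were not tested.

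Base composition followed position. In the 200 bp at the region centre the members had a median GC content of 69.5% and a median ratio of observed to expected CpG of 0.89, values typical of CpG islands, the CpG-rich stretches at many promoters. Near gene starts the medians were 70.3% and 0.93, and at the distal members 62.3% and 0.64. Distal regions of HCT116 alone had a median GC content of 55.5% and distal regions of H460 alone 47.0%, with CpG ratios of 0.29 and 0.32, whereas distal regions of all 4 lines had 59.0% and 0.64. The lung pair A549 and H460 had a median GC content of 56.5% over all its regions and 51.5% over its distal regions. The pair HCT116 and RKO, at 69.0% and 60.8%, was near the members, and RKO and H460 had 65.0% and 58.0%.

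RCGTG was found in the central 200 bp, on either strand, at 251 of 284 members, or 88.4% (84.1% to 91.6%), beside a background of 44.0% of all regions. In windows of the same length 2000 bp to either side of the members the share was 26.8%. Because CpG-rich DNA holds more motifs with a CpG, ACGAG or GCGAG (RCGAG), which differs from the core by 1 base, was counted as a control: it was present at 57.0% of the member centres and in 18.8% of the flanking windows, and at 26.1% of the centres of all regions. The distal members held RCGTG at 92.7% (84.9% to 96.6%) and RCGAG at 40.2%, while the members near a start held them at 86.6% (81.3% to 90.6%) and 63.9%. In the distal regions called in H460 alone RCGTG was present at 61.4%, and in those of HCT116 alone at 43.1%. The 4 other pairs of lines that include HCT116 or H460 had shares from 87.8% to 89.6%, within the interval of the members, and the regions of all 4 lines had 97.8% (95.1% to 99.1%).

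**Figure D3:**
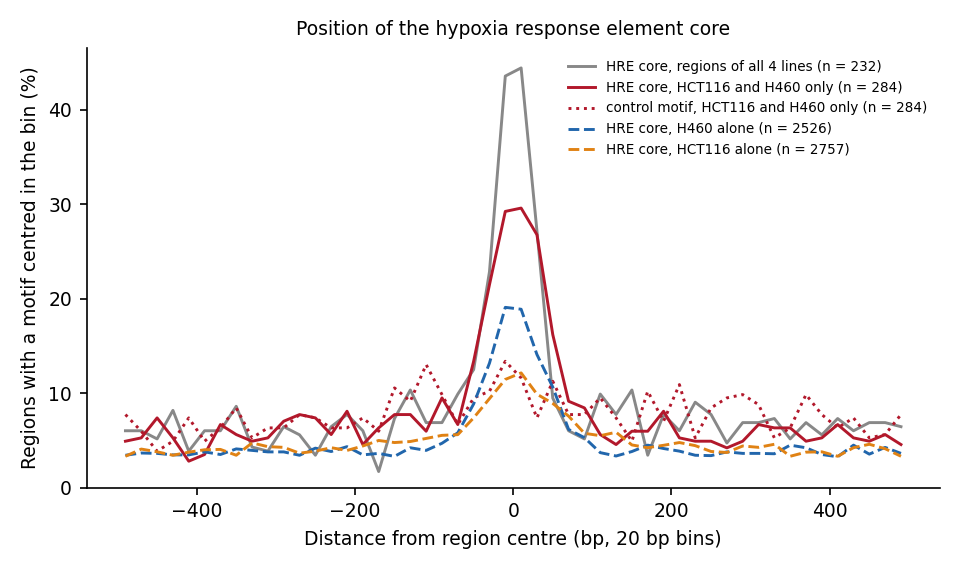
Share of regions (vertical axis, percent) with a motif centred in each 20 bp bin of distance from the region centre (horizontal axis, bp), for the HRE core in the members, in the regions of all 4 lines and in those of HCT116 alone and H460 alone, and for the 1-base control motif in the members. In the members the core reaches 29.6% in the bin from 0 to 20 bp and falls to 5.63% in the bin from 100 to 120 bp, while the control is at 11.6% and 9.51% in these bins.

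The core was concentrated at the centre of the members. A copy lay within 25 bp of the centre at 174 members, or 61.3%, compared with 25.4% for the control motif, and at 84.1% of the regions of all 4 lines. The members held 0 copies in 33 cases, 1 copy in 100, 2 copies in 64, 3 in 46 and 4 or more in 41, so that 53.2% held 2 or more. Those with 4 or more had median signals of 4.91 in HCT116 and 11.1 in H460, the 110 with 2 or 3 had 4.29 and 9.505, those with 1 had 4.48 and 10.4, and those with none had 4.05 and 8.90, so the medians did not rise step by step with the number of copies. The members with the most copies were at VAPB, at RNF187 and in an intron of MXI1. The VAPB region, at the gene of a tether of the endoplasmic reticulum, held 9 copies, with 9.20 and 17.4 tags per 10 M in HCT116 and H460. The RNF187 region held 8. The region in MXI1, a MYC antagonist, held 8, with values of 4.66 and 5.86. The nearest gene start used here lay 18131 bp from it, so it was not counted for MXI1 in the gene lists. A RKO hypoxia peak of 4.48 tags per 10 M lay 129 bp from the MXI1 region, and one of 3.14 lay 188 bp from the VAPB region. Among all 563 copies with both neighbouring bases in the window, GCGTG made up 56.5% and ACGTG 43.5%, whereas at the regions of all 4 lines ACGTG made up 59.6% of 532. TACGTG, one base longer, made up 7.46% of the copies in the members and 20.7% in the regions of all 4 lines. A CACGTG palindrome counts on both strands, and was present at 10.2% of the members.

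The 33 members without RCGTG in the central 200 bp were at gene starts in 27 cases. In 31 of them a copy lay within 500 bp, at a median of 175 bp. No background share was computed for a window of that length, and 26.8% of the flanking 200 bp windows of members held a copy. These windows differ in length, so whether the count of 31 sets these members apart from the DNA around other members cannot be told. They overlapped a normoxia peak of any line in 5 cases, or 15.2%, compared with 4 of the 251 members with RCGTG, or 1.59%, a difference that was not tested.

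Letters of other factors split by position. GGGCGG, the GC box bound by SP and KLF factors at promoters, was present at 60.9% of member centres (55.1% to 66.4%). The share was 71.3% near starts and 35.4% at distal members, beside 18.5% of the centres of all regions. It was 61.2% in HCT116 and RKO only, 48.9% in RKO and H460 only and 29.7% in A549 and H460 only. TGACTCA or TGAGTCA was present at 7.39% of the members (4.89% to 11.0%), with 4 of 202 near starts (1.98%) and 17 of 82 distal members (20.7%, 13.4% to 30.7%), and at 7.82% of all regions. Among the distal regions of other classes it was present at 22.0% in A549 and H460 only, 24.6% in all 4 lines, 14.4% in H460 alone and 7.98% in HCT116 alone. A match of letters is a description of the sequence and does not show that a factor was bound.

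**Figure D4:**
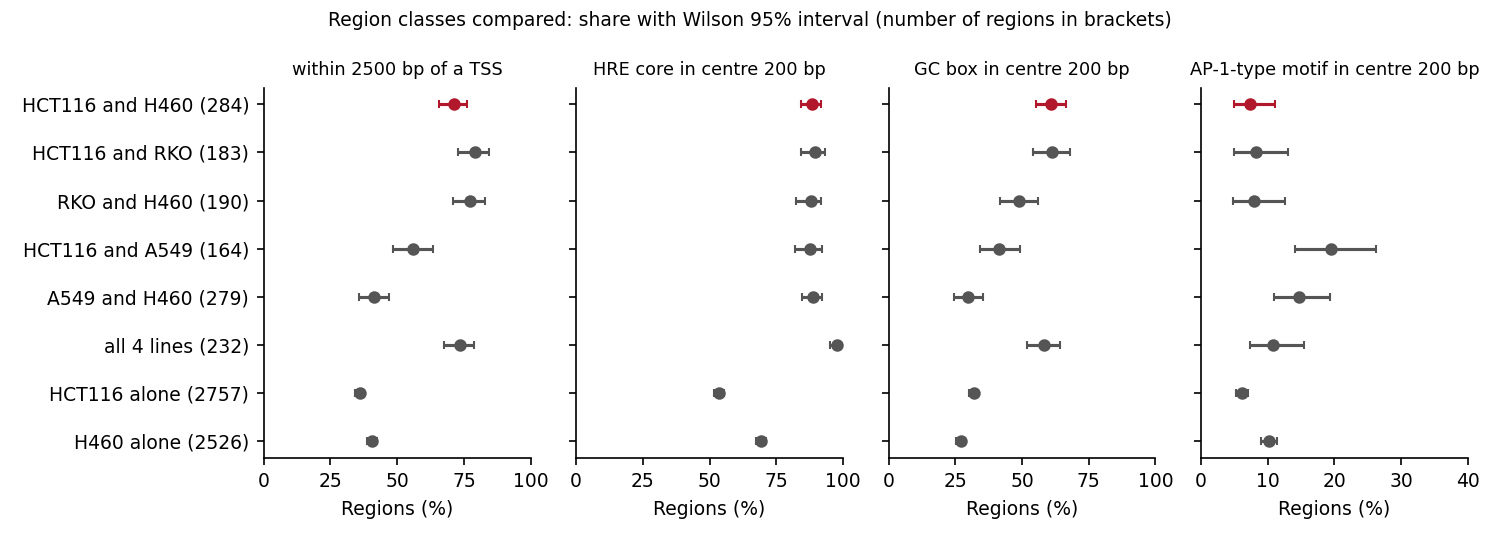
Share of regions (horizontal axes, percent) near a gene start, with the HRE core, with the GC box and with the AP-1-type motif in the central 200 bp, for 8 region classes with their numbers in brackets; bars are Wilson 95% intervals and the members are the first row. The members sit at 71.1%, 88.4%, 60.9% and 7.39%, and the A549 and H460 class at 41.2%, 88.9%, 29.7% and 14.7%. The HCT116 and RKO class sits at 79.2%, 89.6%, 61.2% and 8.20%, near the members.

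In normoxia few members had a peak. A normoxia peak of any line overlapped 9 of the 284 members, or 3.17% (1.68% to 5.91%), beside a background of 1.92% of all regions, and 275 had none. Every other pair of lines had a higher share with a normoxia peak of any line, from 4.74% to 10.7%, a difference that was not tested. Peaks of normoxic HCT116 or H460 overlapped 5 members, or 1.76% (0.754% to 4.05%), beside 0.438% of all regions, 2.73% of those of HCT116 and RKO only, 2.63% of those of HCT116, A549 and H460, and 0.99% of those of H460 alone. By line there were 2 in HCT116, 3 in H460, 4 in RKO and 2 in A549. Of the regions of all 4 lines 24.6% overlapped a normoxia peak. Binding below the threshold of a list cannot be told apart from no binding.

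The region at IER3, an immediate early gene that modulates cell survival, had the highest HCT116 signal among the members and overlapped normoxia peaks of 3 lines. Its HCT116 tag count was higher in the normoxia peak than in the hypoxia peak. HCT116 peaks were 190 bp wide in normoxia and 148 bp in hypoxia, and the counts were not corrected for width. They therefore do not show a stronger signal in normoxia, and whether that signal reflects HIF1A binding was not tested. The region, chr6:30710477-30710667, centred in a noncoding exon of IER3-AS1, held 30.3 tags per 10 M in hypoxic HCT116 and 12.7 in hypoxic H460, and overlapped normoxia peaks of 37.5 in HCT116, 5.99 in RKO and 20.1 in A549. It held no RCGTG in its central 200 bp, and a RKO hypoxia peak of 6.88 lay 49 bp away. Its place among regions without RKO or A549 thus rested on peaks that were adjacent and did not overlap.

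The other 8 members with a normoxia peak had normoxia signals from 2.63 to 5.63 tags per 10 M. Those of H460 were at ADPRS, an ADP-ribose hydrolase, with 2.63 in normoxia and 13.1 in hypoxia; 2509 bp into HIVEP1, with 4.32 and 6.07; and near CYP1B1-AS1, within CYP1B1, a cytochrome P450 gene, with 5.63 and 15.2. The member in an intron of NTSR1 overlapped an HCT116 normoxia peak of 3.90, beside 6.01 in hypoxia. The remaining 4 overlapped normoxia peaks of lines in which no hypoxia peak was called: RKO at RASA1 (3.99), at TFPT and PRPF31 (3.33) and at HEXIM2 (3.55), and A549 at JARID2 (4.12). At the 3 with an H460 normoxia peak and at NTSR1 the hypoxia value of the same line was the higher one, with no replicate to set beside it. These values were not corrected for peak width, which in H460 was 118 bp in normoxia and 146 bp in hypoxia.

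**Figure D5:**
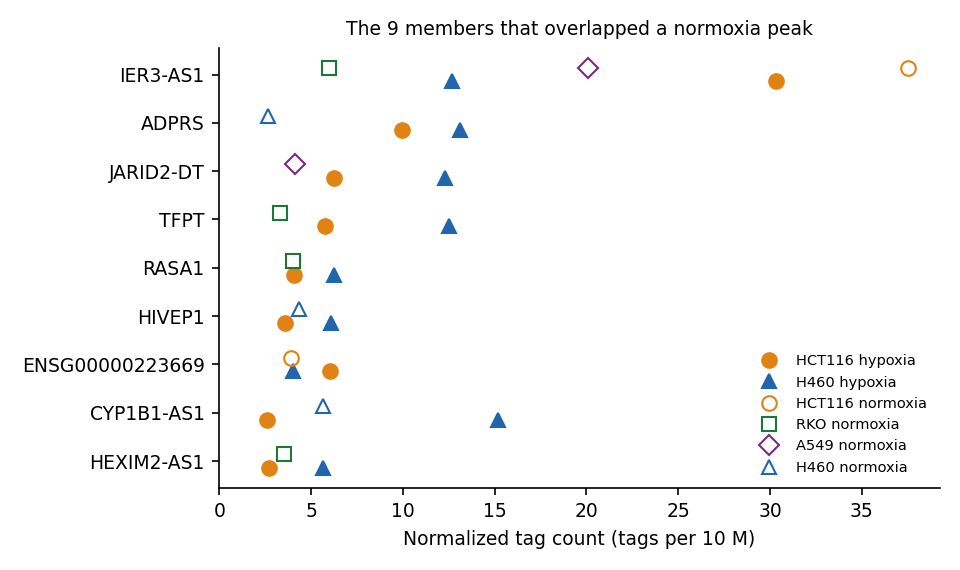
Normalized tag count (horizontal axis, tags per 10 M) of the 9 members that overlapped a normoxia peak, with filled symbols for hypoxic HCT116 and H460 and open symbols for the normoxia peaks of each line. Only at IER3-AS1 does a normoxia value (37.5 in HCT116) exceed both hypoxia values. Values are not corrected for peak width, which in HCT116 was 190 bp in normoxia and 148 bp in hypoxia.

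Lists of genes of known function were counted by whether a member lay within 2500 bp of the gene's start. Of 20163 protein-coding genes 219 had a member there, a background of 1.09%, and 4456, or 22.1%, had a hypoxia region of some kind. Of the 282 genes in 12 lists of hypoxia-related and stress pathways 4 had a member, or 1.42%, near the background, while 124, or 44.0%, had a hypoxia region of some kind and 23 had a region of all 4 lines. The glycolysis and glucose transport list had 0 members among 30 genes, and 20 of its genes had a hypoxia region and 10 a region of all 4 lines. The list of HIF subunits and oxygen sensing had 0 of 16, with 7 genes having a hypoxia region, and collagen hydroxylases and lysyl oxidases had 0 of 12, with 6. There were also 0 members in the lists of mitophagy, autophagy and cell death, of carbonic anhydrases and pH, of TGF-beta receptors and SMADs, of p53 targets, and of heat shock and the unfolded protein response. At a background of 1.09%, a count of 0 is unremarkable for lists of these sizes. Only the outermost start of each gene was used here. The members in a UTR of MAP1LC3B and in an intron of MXI1 were therefore not counted for those genes.

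The 4 listed genes with a member were JMJD6, of 39 histone demethylases and related dioxygenases, ANGPTL4, of 17 angiogenic and secreted factors, USF2, of 36 MYC, E-box and clock factors, and FOXO3, of 32 genes of the PI3K and mTOR pathway. The JMJD6 region, in an intron of this Jumonji-domain oxygenase gene at chr17:74722000-74722162, held 3 RCGTG, with 7.36 in HCT116 and 18.4 in H460. ANGPTL4, a secreted inhibitor of lipoprotein lipase and a known hypoxia target, had a member 1148 bp upstream of its start at chr19:8426950-8427100, with 7.97 and 15.8, and an A549 peak of 9.23 lay 1598 bp from it. USF2, an E-box binding factor, had one with 5.76 and 9.10 at chr19:35758924-35759123, where a lncRNA start was nearer. FOXO3, a forkhead factor downstream of PI3K and AKT, had one 193 bp upstream of its start with 4 RCGTG and values of 4.91 and 9.50, at chr6:108880739-108880952. At ANGPTL4, JMJD6 and FOXO3 another region near the same start was called in RKO or A549, so absence from these lines held for the position and not for the gene.

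In 12 gene families counted by symbol, the members touched 0 to 3 genes in each. Histone genes had 3 of 69 (H2BC6, and H3C1 with H4C1 at a shared region), zinc finger genes named ZNF had 3 of 516 (ZNF106, ZNF37A and ZNF652), and respiratory chain subunits had 3 of 102. The last were NDUFA10, a complex I subunit, with 2.58 in HCT116 and 5.05 in H460, and ATP5MF, an ATP synthase subunit, with 4.54 and 14, counted also through its readthrough gene. Mitochondrial ribosomal proteins had 2 of 78, at MRPL17 (5.76 and 15.2) and MRPS31 (2.82 and 3.64). Splicing factors had 2 of 74, at PRPF31 and SRSF7, and genes with the symbol prefixes of translation factors had 2 of 72. Neither is itself a translation factor, since EIF4A3 belongs to the exon junction complex and EEF1AKMT2 is a methyltransferase of elongation factor 1A. CDK4, the cyclin D kinase and 1 of 81 genes of cyclins and cyclin-dependent kinases, had a member 912 bp upstream with 2.82 and 4.25, and RAB20, 1 of 88 RAB GTPase genes, had one with 5.89 and 14.4. RNA helicases had 1 of 54 (DDX59), solute carriers 1 gene (SLC35F5), or 0.260% of that family, cytosolic ribosomal proteins 0 of 102 and proteasome subunits 0 of 45.

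The isolation of the members from RKO and A549 binding varied widely. The nearest RKO or A549 hypoxia peak lay at a median of 26149 bp, but 39 members, or 13.7%, had one within 1000 bp, and 8 within 100 bp. The closest were at CYP1B1-AS1 (1 bp from an A549 peak of 5.37 tags per 10 M), LINC01816 (14 bp from a RKO peak of 6.58) and SPRYD7 (33 bp from a RKO peak of 3.74). The most isolated were at IER3IP1 (966813 bp; 3.56 in HCT116 and 5.26 in H460), C1orf21 (857346 bp; 2.94 and 6.07) and SRD5A3, a reductase of dolichol synthesis (827550 bp; 5.03 and 14). A region of all 4 lines lay within 50000 bp of 11 members, and 6 had another member within 10000 bp. Of the 219 protein-coding genes with a member near the start, 40, or 18.3%, also had a region with a RKO or A549 peak within 2500 bp of that start. The counts in this paragraph were not computed for other region classes or other genes. Whether they are particular to the members was therefore not tested.

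On the edge of the rule, the HCT116 and H460 peaks of a member overlapped by 9 to 146 bp, with a median of 125 bp. There were 6 members with an overlap of at most 20 bp, with HCT116 signals from 2.45 to 6.26 tags per 10 M, and 4 HCT116 peaks just outside, with a gap of at most 20 bp to an H460 peak, had signals from 2.82 to 19.1. By chromosome, 23 members were on chromosome 19, or 8.10%, beside 5.71% of HCT116 regions, 5.03% of H460 regions and 3.55% of all regions, and 10 were on chromosome 8, or 3.52%, beside 6.86% of HCT116 regions, 4.02% of H460 regions and 9.19% of all regions. Chromosome 7 also held 23 members, beside 5.73%, 5.31% and 7.10% of these regions. When every list was held to an input fold of 14 or more, 158 regions met the rule and 107 of the 284 members were among them, so membership depended on the thresholds of the lists.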

How the data were processed

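HIF1A ChIP-seq was analysed from 8 peak lists, 1 for each of 4 lines in normoxia and hypoxia. Per the labels and file headers, the authors aligned reads to GRCh37 (hg19) with Bowtie2 2.2.9, used SAMtools 1.3.1 and Picard 1.129, merged 2 replicates and called peaks with HOMER 4.3 against 1 input of the line, with a local fold of 3 and an FDR of 0.001. The deposited signal is the normalized tag count per 10 M tags of the merged library, and the deposited fold ratios compare a peak with input or its surroundings. Other deposited columns, among them p-values, were not used. The labels of the inputs conflict on the line, for RKO and A549 in the description and for RKO, A549 and H460 in the source name; groups follow the titles.

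Regions were joined, annotated with GENCODE 44 on GRCh37 (38865 protein-coding and lncRNA genes, without the mitochondrial genome) and searched for motifs with Python 3.11.15 and pysam 0.24.0, and the code was tested on simulated peaks and sequences. Unscaled tags are the signal times the library total. With 1 list for each group no test across samples was possible, and intervals (Wilson for shares, exact for tags, 95%) cover counting error only. PCR duplicates and the spread between cultures are not in them. Named members are the 10 strongest by mean rank within 2500 bp of a TSS, the 5 strongest farther away, the 3 highest and 3 lowest ratios, all members with a normoxia peak, those at listed genes, the 3 nearest to and farthest from a RKO or A549 peak, and the 3 with most RCGTG. Genes of the families and any others were named as members of fixed lists or after their values were seen. Members and gene lists were chosen with earlier results of these data known.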

Additional observations from a re-analysis of the deposited data

How the results depend on the processing

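Of 54 alternative values for 7 results, 46 stayed inside the 95% interval of the reported value or within 1.5 times the reported count. The number of members, 284, fell to 158 when every list was held to an input fold of 14 or more and to 173 when the local fold had to reach 6, of which 107 and 152 were members before. The other 4 membership rules gave 245 to 285. The share near a start was 65.1% within 1000 bp, 84.2% with every annotated transcript and 63.0% with protein-coding genes. RCGTG was present at 80.3% of members in the central 100 bp. The median log2 ratio was 0.0091 relative to regions of all 4 lines, by the subtraction of their median. When the local fold had to reach 6, 2 listed genes had a member. The recomputed shares under changed membership, and those without chromosome 8, were chosen after seeing the data. No paired analysis was possible because the replicates were merged in each list, which also kept single replicates from being left out. At these depths a list's weakest hypoxia peaks held 11 to 17 tags, so weaker binding was not detectable.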
